A study of Mus musculus with 24 samples.

Results

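The genes described here make the fatty acids and galactolipids of myelin. They were picked by gene name, and earlier results of these data were known when they were chosen. They are Ugt8a, Gal3st1, Fa2h, Cers2, Fasn, Acaca, Scd1, Scd2, Elovl1 and Elovl6, 10 of the 37074 gene names on the array. Each was followed through the probe with the highest mean over all arrays. Together they had 22 of the 56605 gene probes, and 21 of the 22 were among the 36409 probes tested. All 10 brightest probes were well above background on all 24 arrays.

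Gene expression was measured in C57BL/6 mice in efferent nerve fibres (EN, the ventral root) and afferent nerve fibres (AN, the dorsal root) of lumbar segments 4 to 6 at P0, the day of birth, and at ages of 1W, 3W and 5W. The 8 groups held 3 arrays apiece. No genetic change and no treatment was applied in any group. The study's methods give 9 animals per time point, of both sexes, with the fibres collected into 1 tube for each group and 3 independent experiments, and the labels do not tie an array to an animal, so p-values measure the spread between these arrays. A nerve root holds axons, Schwann cells, fibroblasts and vessels, and in such bulk RNA fewer cells of a type and less RNA per cell cannot be told apart.

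Myelin is a lipid-rich membrane that Schwann cells wrap around axons, and much of it is laid down in the first weeks after birth. Fatty acids are made from acetyl-CoA by acetyl-CoA carboxylase and fatty acid synthase, lengthened by elongases and given a double bond by stearoyl-CoA desaturases. Ceramide synthase joins very long acyl chains to a sphingoid base, fatty acid 2-hydroxylase adds a hydroxyl group to the acyl chain, UGT8 adds galactose to give galactosylceramide, and a sulfotransferase turns galactosylceramide into sulfatide.

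Values are log2 signals after quantile normalization, so that 1 unit is a fold change of 2. A gene was called changed at an adjusted p below 0.05 in limma (Benjamini-Hochberg over the 36409 tested probes of a comparison) together with a fold change above 2. The arrays of the series had a median signal of 45.4 to 191 over a local background of 23 to 46, with 55.1% to 71.7% of gene spots well above background and no saturated spot. They were printed on 4 slides. All 3W arrays shared slide 4 with 1 replicate of 5W, and no slide held both P0 and 3W. The array of AN at 3W, replicate 3, had the lowest weight of the 24 arrays (0.216, on a scale whose geometric mean over the arrays is 1), followed by AN at 5W, replicate 3 (0.31) and EN at 5W, replicate 3 (0.334).

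The labelled tissue was checked against cell markers. All 12 markers of myelinating Schwann cells were above background in every group, and their summed level on the log2 scale rose from 19.58 to 19.72 in EN at P0 to 20.52 to 20.55 at 5W, and from 18.95 to 19.3 in AN at P0 to 20.5 to 20.6 at 5W. All 8 markers of sensory neuron cell bodies were above background in both roots at P0, with a summed level of 14.89 to 15.65 in EN and 15.01 to 16.69 in AN. In EN this sum lay at 10.46 to 12.06 at 1W and at 10.98 to 11.61 at 5W. In AN it lay at 16.16 to 16.5 at 1W, and between 12.49 and 17.83 at 3W and 10.77 and 14.65 at 5W. The P0 libraries of efferent fibres thus held sensory neuron transcripts that the later efferent libraries held at lower levels. Of 10 oligodendrocyte markers, 5 were above background on all arrays of EN at P0, 8 at 3W and 6 at 5W. The counts for AN at these stages were 4, 10 and 8. Opalin and Hapln2 were not above background on any array of P0 or 1W. The summed level of this list ranged from 11.61 to 16.09 over all arrays. At P0 the EN arrays spanned 15.18 to 15.52 and the AN arrays 15.47 to 15.63. At 5W the EN arrays spanned 11.61 to 15.24 and the AN arrays 15.1 to 16.09. The sum of 10 adipocyte markers ranged from 10.55 to 12.52 on all arrays but those of AN at P0, where it reached 15.48. Of 6 motor neuron markers, 3 to 5 were above background on all arrays of a group, and Mnx1 was above background on no array. Their summed level at P0 was 13.54 to 14.29 in EN and 13.65 to 15.29 in AN. At 1W it was 9.7 to 11 in EN and 14.48 to 14.87 in AN. At 3W it was 10.24 to 10.51 and 11.14 to 16.12, and at 5W 10.2 to 10.78 and 10.81 to 12.68. Prph was on both this list and that of sensory neurons. The part of these cells in the results was not tested.

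On build mm9, as the array annotation gives it, the probes used are at chr3:125568995-125569054 (Ugt8a, minus strand), chr11:3899197-3899256 (Gal3st1, plus strand), chr8:113869119-113869178 (Fa2h, minus strand), chr3:95127163-95127222 (Cers2, plus strand) and chr11:120668460-120668519 (Fasn, minus strand). Those of the other members are at chr11:84215093-84215152 (Acaca, plus strand), chr19:44469387-44469446 (Scd1, minus strand), chr19:44381024-44381083 (Scd2, plus strand), chr4:118105163-118105222 (Elovl1, plus strand) and chr3:129337756-129337815 (Elovl6, plus strand).

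The stretches of promoter upstream of 5 members are shown here. Acaca and Elovl6 also had a window and are not shown. A link between these sequences and the courses of the genes was not tested. RefSeq promoter windows (build GRCm38.p6, 250 bases before to 50 bases after each annotated start) were at hand for 7 of the 10 genes, in 11 windows; Fa2h, Scd1 and Scd2 had none. In the sequences below, the 250 bases before the start site are written 5′ to 3′ along the gene, with capitals marking the NF-Y box (CCAAT) and the E-box (CACGTG) on either strand. Fasn lies at chr11:120824548-120824797 on the minus strand, Cers2 at chr3:95314940-95315189 on the plus strand, Elovl1 at chr4:118427843-118428092 on the plus strand, Gal3st1 at chr11:3983386-3983635 on the plus strand and Ugt8a at chr3:125938653-125938902 on the minus strand.

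Fasn: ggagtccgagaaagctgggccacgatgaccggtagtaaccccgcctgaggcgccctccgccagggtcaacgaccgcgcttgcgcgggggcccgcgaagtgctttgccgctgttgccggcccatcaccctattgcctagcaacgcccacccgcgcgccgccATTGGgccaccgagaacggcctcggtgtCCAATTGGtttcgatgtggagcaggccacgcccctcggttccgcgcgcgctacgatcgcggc

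Cers2: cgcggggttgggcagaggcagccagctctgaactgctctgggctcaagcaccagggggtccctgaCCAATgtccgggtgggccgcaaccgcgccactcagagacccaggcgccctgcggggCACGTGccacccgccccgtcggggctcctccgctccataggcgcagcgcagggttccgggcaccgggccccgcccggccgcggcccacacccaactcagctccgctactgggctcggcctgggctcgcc

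Elovl1: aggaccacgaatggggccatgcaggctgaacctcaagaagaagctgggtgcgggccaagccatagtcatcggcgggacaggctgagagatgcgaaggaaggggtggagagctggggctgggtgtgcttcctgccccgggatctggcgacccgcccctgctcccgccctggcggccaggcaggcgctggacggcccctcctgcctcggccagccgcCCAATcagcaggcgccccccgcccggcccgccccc

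Gal3st1: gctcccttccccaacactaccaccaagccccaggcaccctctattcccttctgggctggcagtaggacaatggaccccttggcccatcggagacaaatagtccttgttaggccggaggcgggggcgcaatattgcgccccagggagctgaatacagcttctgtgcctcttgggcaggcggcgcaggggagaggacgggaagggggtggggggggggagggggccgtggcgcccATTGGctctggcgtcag

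Ugt8a: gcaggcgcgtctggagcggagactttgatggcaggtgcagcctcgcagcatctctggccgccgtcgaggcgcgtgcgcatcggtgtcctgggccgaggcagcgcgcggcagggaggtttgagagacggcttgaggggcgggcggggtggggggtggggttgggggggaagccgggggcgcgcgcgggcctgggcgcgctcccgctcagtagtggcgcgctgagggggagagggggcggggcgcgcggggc

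Across the full windows of 300 bases, the NF-Y box was found in 6 of the 11 windows, against 37.4% of all 32851 promoter windows. These came from 4 of the 7 genes (Gal3st1, Cers2, Fasn and Elovl1). Every Gal3st1 window held it, and some Gal3st1 windows overlap each other. Fasn held it at 3 places, with first bases 90, 62 and 59 bases before the start site, and the latter pair overlapped. The E-box was found in Cers2 alone, 129 bases before the start, in 1 of the 11 windows, against 7.15% of all windows. The GC box (GGGCGG) was found in Ugt8a, Cers2 and Elovl1, in 4 of the 11 windows, against 35.7% of all windows, with 3 copies in Ugt8a. The EGR core (GTGGGCG) was found in Fasn alone, in 1 of the 11 windows, against 7.97% of all windows. The sterol regulatory element core (TCACNCCAC) and the SOX box (ACAAAG) were found in none of the 11 windows, against 1.24% and 18.7% of all windows. The 1 window of Acaca and the 1 window of Elovl6 held none of the 6 motifs. Other start sites of these genes were not searched, so this is no statement on their main promoters. Each motif was searched on both strands, and a match is a match of letters.

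The first comparison asked how the genes changed as the efferent root matured. All 10 genes had higher group means at 1W, 3W and 5W than at P0. At 1W, 6 of the 10 were called higher than at P0, against 11.9% of all tested probes called in either direction and 6.25% called higher. At 3W, 8 were called higher, against 30.5% of all tested probes (16.1% higher), and at 5W 7 were called higher, against 29.9% (15.4% higher). The median change of the 10 genes was 1.12 at 1W, 1.55 at 3W and 1.42 at 5W on the log2 scale, beside medians of 0.06, 0.04 and 0.04 over all tested probes. No member was called lower. Between successive later stages no member was called: 0 of 10 for 3W against 1W, where 11.7% of all tested probes were called, and 0 of 10 for 5W against 3W, where 1.12% were. At an adjusted p below 0.05 with no fold minimum, 6 members passed for 3W against 1W, beside 27.4% of all tested probes, and 0 for 5W against 3W, beside 2.25%. At an unadjusted p below 0.05, 4 members passed for 5W against 3W, beside 16.8%. A fit that added slide as a term, called the slide block here, gave 3 members for 3W against 1W (Fa2h, Cers2 and Scd1) and 1 for 5W against 3W (Scd1) at an adjusted p below 0.05.

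Afferent fibres showed the same direction. All 10 group means lay above P0 at each later stage, and 6 genes were called higher at 1W, 8 at 3W and 8 at 5W. The background shares called in these comparisons were 8.58%, 27.8% and 27.8%, or 4.96%, 15% and 15.2% higher. The median change of the 10 genes was 1.29, 1.79 and 1.98, beside 0.02, 0.01 and 0.03 over all tested probes. No member was called for 3W against 1W (12.6% of all tested probes called) or for 5W against 3W (1.68% called). At an adjusted p below 0.05 with no fold minimum, 5 members passed for 3W against 1W, beside 29.9% of all tested probes, and 1 for 5W against 3W, beside 3.67%. The slide block gave 3 (again Fa2h, Cers2 and Scd1) and 0. Both roots were compared with their own P0 arrays.

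**Figure D1:**
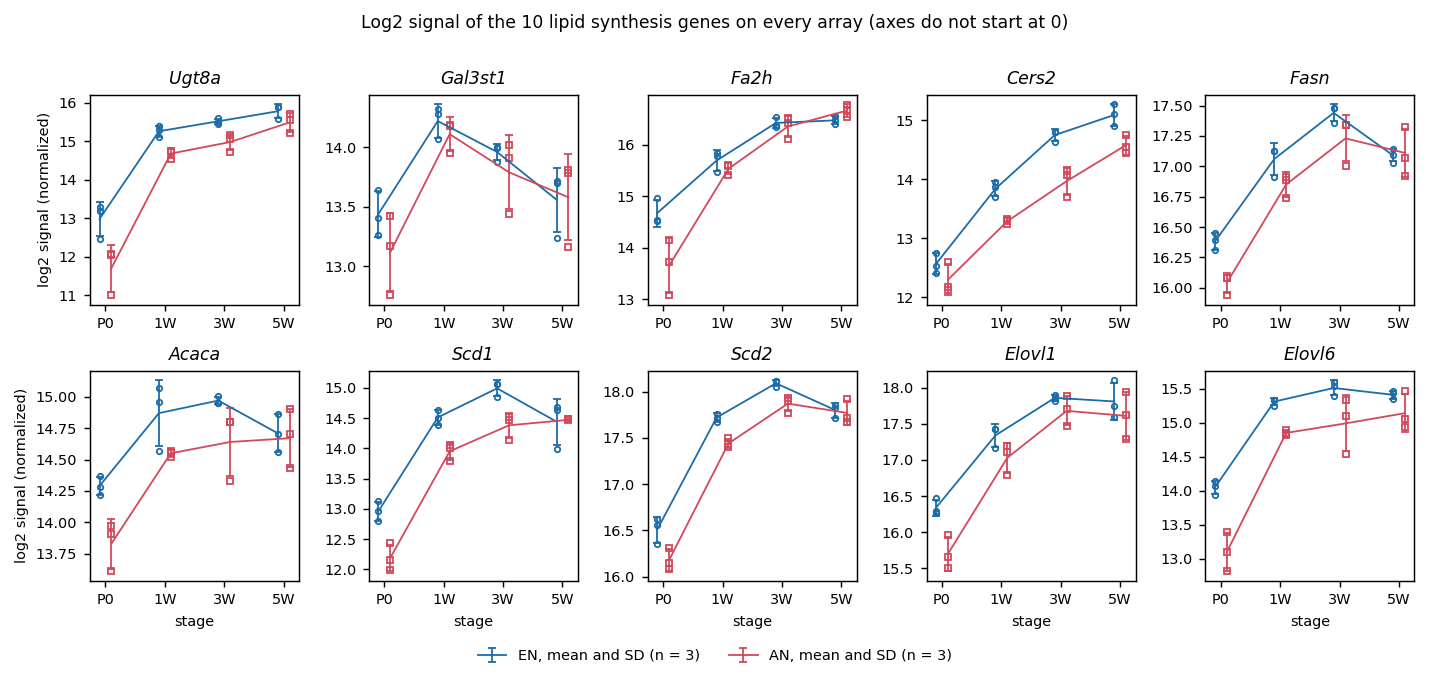
Log2 signal (vertical axis) of each gene on every array against stage (horizontal axis), with open circles for EN, open squares for AN, and lines and bars for the mean and SD of 3 arrays. The P0 means are the lowest of each root for all 10 genes, Gal3st1 has its highest means at 1W, and each panel has its own axis.

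Ugt8a encodes the enzyme that makes galactosylceramide, and it showed the largest change of the 10 genes. In EN its log2 signal was 13.29, 12.47 and 13.18 on the P0 arrays, 15.39, 15.28 and 15.1 on those of 1W, 15.5, 15.46 and 15.6 on those of 3W and 15.88, 15.9 and 15.57 on those of 5W. In AN it was 12.06, 11 and 12.05 on the P0 arrays, 14.74, 14.75 and 14.54 on those of 1W, 15.15, 15.07 and 14.73 on those of 3W and 15.55, 15.7 and 15.21 on those of 5W. In both roots every later array lay above every P0 array, and AN replicate 2 was the lowest P0 array. The rise by 1W was 2.28 ± 0.24 (SE, n = 3 arrays a group) in EN and 2.97 ± 0.24 in AN (limma adjusted p = 3.31e-06 and 1.42e-07), a 4.84-fold and a 7.84-fold change. By 5W it reached 2.8 ± 0.24 in EN and 3.79 ± 0.24 in AN, or 6.98-fold and 13.8-fold (limma adjusted p = 2.34e-08 and 4.49e-10). From 1W to 3W this probe moved by 0.27 ± 0.24 in EN and 0.31 ± 0.24 in AN (limma adjusted p = 0.45 and 0.363), and by 0.73 and 0.77 in the slide block (limma adjusted p = 0.136 and 0.0981). A second Ugt8a probe, which lies nearer the 5′ end of the same transcript, gave a step of 1.18 in EN and 1.27 in AN (limma adjusted p = 0.0051 and 0.00269), so the probes differ on that step while both gave a rise from P0 (2.46 in EN and 2.89 in AN at 1W for the second).

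Gal3st1, the sulfotransferase that makes sulfatide, took another course. In EN its log2 signal was 13.64, 13.26 and 13.41 on the P0 arrays, 14.32, 14.28 and 14.07 on those of 1W, 13.99, 14 and 13.88 on those of 3W and 13.7, 13.24 and 13.72 on those of 5W. In AN it was 13.42, 12.76 and 13.17 on the P0 arrays, 14.19, 14.18 and 13.95 on those of 1W, 14.02, 13.91 and 13.44 on those of 3W and 13.81, 13.16 and 13.78 on those of 5W. The mean was highest at 1W in both roots, and the 5W arrays overlapped those of P0. The change at 1W was 0.78 ± 0.2 in EN and 0.99 ± 0.2 in AN (limma adjusted p = 0.00742 and 0.00169), a 1.72-fold and a 1.99-fold difference under the fold threshold. In AN it passed that threshold without replicate 1 (1.14) or 3 (1.01) of P0 or replicate 3 of 1W (1.07). At 5W it was 0.12 ± 0.2 in EN, with a 95% interval of -0.31 to 0.54, and 0.47 ± 0.2 in AN, with 0.04 to 0.89 (limma adjusted p = 0.645 and 0.0613). With slide as a block the 3W change was 0.17 in EN and 0.32 in AN in place of 0.52 and 0.67 (limma adjusted p = 0.56 and 0.252 against 0.037 and 0.00958).

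Fa2h, which hydroxylates the acyl chain of myelin galactolipids, rose through 3W. In EN its log2 signal was 14.96, 14.51 and 14.53 on the P0 arrays, 15.84, 15.77 and 15.47 on those of 1W, 16.38, 16.35 and 16.53 on those of 3W and 16.48, 16.55 and 16.39 on those of 5W. In AN it was 14.14, 13.08 and 13.72 on the P0 arrays, 15.6, 15.58 and 15.4 on those of 1W, 16.41, 16.52 and 16.11 on those of 3W and 16.53, 16.76 and 16.67 on those of 5W. The roots stood apart at P0 and overlapped from 1W on. The change since P0 at 5W was 1.81 ± 0.2 in EN and 3.01 ± 0.2 in AN, or 3.5-fold and 8.04-fold (limma adjusted p = 4.49e-07 and 6.07e-10). From 1W to 3W it rose further by 0.73 in EN and 0.82 in AN (limma adjusted p = 0.0112 and 0.00472), under the fold threshold. The call at 1W in EN, 1.03 ± 0.2, lay close to the fold threshold. It was under it without replicate 2 (0.95) or 3 (0.96) of EN at P0, without replicate 1 (0.95) or 2 (0.99) of EN at 1W, and when slide was the block (0.99).

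Cers2, the ceramide synthase of very long acyl chains, kept rising to 5W in both roots. In EN its log2 signal was 12.53, 12.42 and 12.76 on the P0 arrays, 13.87, 13.95 and 13.7 on those of 1W, 14.81, 14.64 and 14.8 on those of 3W and 14.91, 15.27 and 15.1 on those of 5W. In AN it was 12.18, 12.13 and 12.6 on the P0 arrays, 13.33, 13.24 and 13.31 on those of 1W, 14.14, 14.07 and 13.7 on those of 3W and 14.44, 14.75 and 14.54 on those of 5W. No arrays of successive stages overlapped in either root. The change since P0 at 5W was 2.52 ± 0.15 in EN and 2.28 ± 0.15 in AN, or 5.75-fold and 4.84-fold (limma adjusted p = 1.58e-10 and 5.76e-10). The steps from 1W to 3W were 0.91 ± 0.15 in EN and 0.68 ± 0.15 in AN (limma adjusted p = 0.000221 and 0.00245), and the step from 3W to 5W passed the adjusted p in AN alone (0.61 ± 0.15, limma adjusted p = 0.0289, against 0.34 ± 0.15 and 0.251 in EN). In the slide block that step passed in neither root (0.59 in AN, limma adjusted p = 0.0795). In AN the change at 1W was 0.99 ± 0.15, just under the fold threshold, and lay above it without replicate 3 of P0 (1.14), without replicate 2 of 1W (1.02) and when slide was the block (1.04). A second Cers2 probe gave changes at 5W of 2.39 in EN and 1.97 in AN.

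Fasn and Acaca, which make palmitate, had fold changes near or under the threshold at each stage. The log2 signal of Fasn in EN was 16.38 ± 0.07 (SD, n = 3), 17.06 ± 0.13, 17.44 ± 0.07 and 17.09 ± 0.05 in order of stage, and in AN it was 16.04 ± 0.08, 16.85 ± 0.1, 17.23 ± 0.19 and 17.11 ± 0.2. Its mean was highest at 3W in both roots, and no later array overlapped those of P0. The change at 3W was 1.06 ± 0.12 (SE) in EN and 1.19 ± 0.12 in AN, or 2.08-fold and 2.29-fold (limma adjusted p = 7.2e-07 and 1.74e-07). Both fell under the fold threshold with slide as a block, at 0.82 and 0.95 (limma adjusted p = 0.000771 and 0.000231), and so did the call in AN at 5W, from 1.07 to 0.96, which was also 0.96 without replicate 3 of AN at 5W. Acaca encodes acetyl-CoA carboxylase, the step before Fasn. Its log2 signal was 14.29 ± 0.07 (SD, n = 3), 14.87 ± 0.26, 14.97 ± 0.03 and 14.71 ± 0.15 in EN and 13.83 ± 0.2, 14.55 ± 0.03, 14.64 ± 0.27 and 14.67 ± 0.23 in AN, in order of stage. At 3W it was 0.68 ± 0.16 (SE) above P0 in EN and 0.81 ± 0.16 in AN, or 1.6-fold and 1.75-fold (limma adjusted p = 0.00125 and 0.000288), and it was called at no stage. In the slide block the EN change at 3W was 0.48 and did not pass (limma adjusted p = 0.0647), and the AN change was 0.61 (limma adjusted p = 0.0234). Leaving out replicate number 3 brought the AN change to 1.01, past the fold threshold. The 6 other Acaca probes, which were dimmer, gave changes at 3W of 0.53 to 2.03 in EN and 0.74 to 1.91 in AN.

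Scd1 and Scd2 encode stearoyl-CoA desaturases, which make the monounsaturated chains of membrane lipids. Scd1 in EN gave 13.13, 12.8 and 12.96 on the P0 arrays, 14.5, 14.63 and 14.39 on those of 1W, 15.07, 14.84 and 15.07 on those of 3W and 14.64, 14.68 and 13.99 on those of 5W. In AN it gave 12.16, 11.99 and 12.43 on the P0 arrays, 14.05, 14.01 and 13.79 on those of 1W, 14.52, 14.47 and 14.13 on those of 3W and 14.48, 14.48 and 14.47 on those of 5W. EN arrays were above AN arrays without overlap at P0, 1W and 3W, and the groups overlapped at 5W, where EN replicate 3 was the lowest. Its change since P0 at 3W was 2.03 ± 0.17 in EN and 2.18 ± 0.17 in AN, or 4.08-fold and 4.55-fold (limma adjusted p = 1.86e-08 and 7.92e-09). From 3W to 5W the EN value differed by -0.56 ± 0.17 (limma adjusted p = 0.0931), and by -0.78 in the slide block, which passed (limma adjusted p = 0.0243). Replicate 3 was the only EN array of 5W on slide 4, which held all 3W arrays, and its array weight was 0.334. Within slide 4 the difference was -1, so it rests on that array. Scd2 was 16.51 ± 0.14 (SD, n = 3), 17.72 ± 0.05, 18.09 ± 0.03 and 17.8 ± 0.08 in EN and 16.18 ± 0.12, 17.44 ± 0.05, 17.87 ± 0.08 and 17.77 ± 0.13 in AN, in order of stage. It rose by 1.58 ± 0.1 (SE) at 3W in EN and by 1.68 ± 0.1 in AN, a 3-fold and a 3.21-fold change (limma adjusted p = 7.08e-10 and 3.43e-10). A dim second Scd1 probe, on the opposite strand and above background on 19 of the 24 arrays, gave changes at 3W of 3.89 in EN and 2.56 in AN.

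Elovl6 lengthens palmitate and Elovl1 makes very long saturated chains. Elovl6 in EN gave 14.14, 13.94 and 14.07 on the P0 arrays, 15.34, 15.25 and 15.34 on those of 1W, 15.6, 15.54 and 15.39 on those of 3W and 15.46, 15.35 and 15.44 on those of 5W. In AN it gave 13.39, 12.82 and 13.1 on the P0 arrays, 14.82, 14.83 and 14.9 on those of 1W, 15.33, 15.1 and 14.54 on those of 3W and 15.05, 14.93 and 15.46 on those of 5W. After 1W no further step passed the test in either root, with differences between 1W and 3W of 0.2 ± 0.17 in EN and 0.14 ± 0.17 in AN (limma adjusted p = 0.43 and 0.584). At 1W it stood 1.26 ± 0.17 above P0 in EN and 1.75 ± 0.17 in AN (limma adjusted p = 4.78e-05 and 1.25e-06). Elovl1 was 16.34 ± 0.11 (SD, n = 3), 17.34 ± 0.16, 17.86 ± 0.04 and 17.81 ± 0.26 in EN and 15.7 ± 0.24, 17.03 ± 0.21, 17.68 ± 0.2 and 17.61 ± 0.33 in AN. It was 1.52 ± 0.18 (SE) above P0 at 3W in EN and 1.98 ± 0.18 in AN, or 2.86-fold and 3.95-fold (limma adjusted p = 1.12e-06 and 4.38e-08). With slide as a block these changes were 1.01 and 1.47. In EN at 1W its change of 0.99 ± 0.18 lay just under the fold threshold and above it without replicate 1 of EN at P0 (1.06) or replicate 3 of EN at 1W (1.09). A second Elovl1 probe gave changes at 3W of 1.59 in EN and 1.69 in AN.

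**Figure D2:**
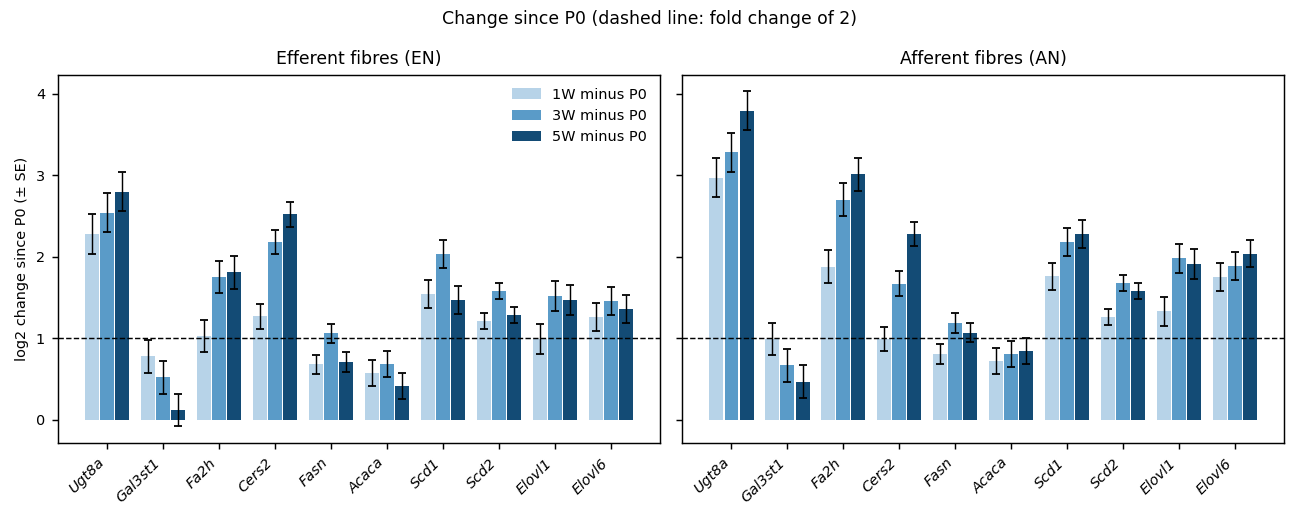
Log2 change since P0 (vertical axis, bars with SE) of each gene at 1W, 3W and 5W in EN (left) and AN (right), with a dashed line at a fold change of 2. Ugt8a has the tallest bars in both roots (2.8 in EN and 3.79 in AN at 5W), and the bars of Gal3st1 shrink from 1W to 5W.

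Within each slide that held both stages, the direction from P0 to 1W was the same for all 10 genes. On slide 1 the differences spanned 0.68 to 2.09 in EN and 0.59 to 2.68 in AN, and on slide 3 they spanned 0.32 to 2.27 and 0.76 to 3.01. For 5W against P0, which shared slide 3 alone, 9 of 10 genes were higher in EN (-0.1 to 3.07) and 10 of 10 in AN (0.2 to 4.18). For 5W against 3W, which shared slide 4, 3 genes were higher and 7 lower in EN (-1 to 0.35), and 9 were higher in AN (-0.01 to 0.57). For 3W against P0 no within-slide value could be had, and the fit with slide as a block links these stages through 5W.

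The courses of the 10 genes differed in where they peaked. By group means, Gal3st1 was highest at 1W in both roots. In EN, 6 genes were highest at 3W (Fasn, Acaca, Scd1, Scd2, Elovl1 and Elovl6) and 3 at 5W (Ugt8a, Fa2h and Cers2). In AN, 3 were highest at 3W (Fasn, Scd2 and Elovl1) and 6 at 5W. Between 3W and 5W, Cers2 in AN was the single member past an adjusted p of 0.05, and in the slide block Scd1 in EN was. The only EN array of 5W on the slide of the 3W arrays was replicate 3, the lowest of its group for Scd1. The order of these means depends on slide 4, which held all 3W arrays. In the slide block the 5W minus 3W difference turned for Elovl1 in EN (-0.05 to 0.26) and AN (-0.07 to 0.24), for Elovl6 in EN (-0.09 to 0.08), and for Fasn (-0.12 to 0.01) and Scd1 (0.1 to -0.13) in AN. The 3W minus 1W difference turned for Acaca (0.1 to -0.03 in EN and 0.09 to -0.03 in AN) and Elovl6 (0.2 to -0.01 and 0.14 to -0.07).

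Whether enzymes of neighbouring steps changed equally was tested for 5 pairs at 3 later stages by an exact two-sided permutation test of stage labels within each root (6 arrays a root and 400 arrangements, smallest possible p = 0.005, Benjamini-Hochberg over 15 tests). The adjusted p was below 0.05 for 12 of the 15. This test moves the arrays of each root on their own, although same-numbered AN and EN arrays deviated together. Moving such pairs as units leaves 20 arrangements and a smallest exact p of 0.1, which 12 of the 15 reached and which cannot pass 0.05, so these p-values hold only if the roots are taken as separate. Ugt8a rose more than Gal3st1 by 1.74 at 1W, 2.32 at 3W and 3 at 5W on the log2 scale (exact permutation adjusted p = 0.00682 each). It rose more than Fa2h by 1.17, 0.68 and 0.89 (exact permutation adjusted p = 0.00682 each). Scd1 rose more than Scd2 by 0.42 and 0.47 at 1W and 3W (exact permutation adjusted p = 0.00682) and by 0.44 at 5W (exact permutation adjusted p = 0.0312), where the difference was 0.18 in EN and 0.7 in AN. Elovl1 rose less than Elovl6 at 1W, with a difference of -0.34 (exact permutation adjusted p = 0.00682), with differences of 0.08 at 3W and -0.01 at 5W that did not pass (exact permutation adjusted p = 0.38 and 0.895). Acaca rose less than Fasn at 3W and 5W, with differences of -0.38 and -0.26 (exact permutation adjusted p = 0.00682), and at 1W the difference was -0.1 (exact permutation adjusted p = 0.179). The Acaca difference turned to 0.23 at 1W and 0.14 at 3W and 5W when the mean of all Acaca probes was used, so that its direction rests on the probe. A ratio within an array shows unequal change of 2 probes, whose brightness and response can differ.

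**Figure D3:**
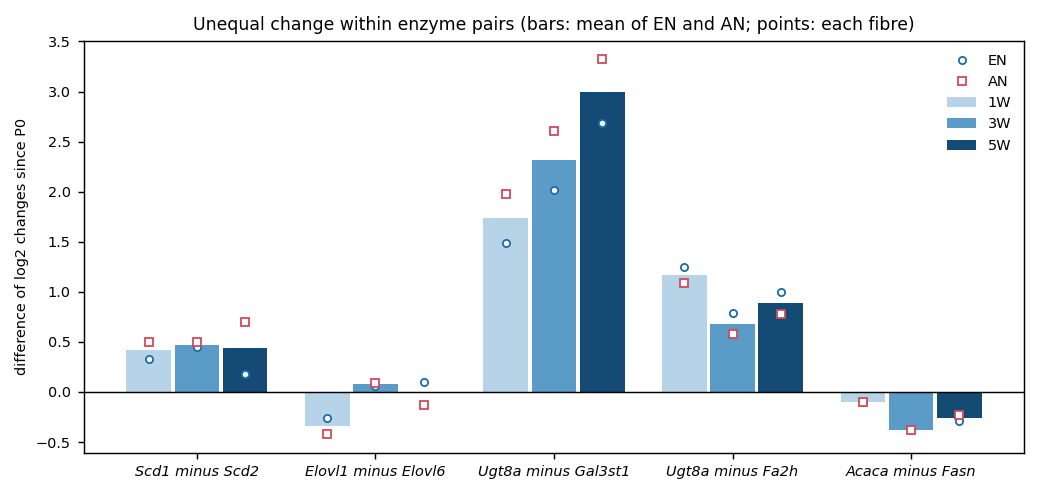
Difference between the log2 changes since P0 of 2 enzymes (vertical axis) for 5 pairs at 1W, 3W and 5W, with bars for the mean of both roots, circles for EN and squares for AN. Ugt8a minus Gal3st1 grows from 1.74 at 1W to 3 at 5W, and Acaca minus Fasn lies at or below -0.1.

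The next comparison asked whether the roots differed. At P0 all 10 genes had lower means in AN than in EN, and in each of the 3 same-numbered pairs of arrays AN was lower for every gene (30 of 30 differences). The genes moved together over the arrays (median r 0.919), so the 30 differences are not independent and rest on 3 pairs. The matching share of all tested probes is not given here. Ugt8a and Fa2h, 2 of the 10, were called lower, against 0.327% of all tested probes called in either direction and 0.255% called lower, and the AN and EN arrays did not overlap for 8 of the 10, beside 13.2% of all tested probes. The median difference of the 10 genes was -0.55, beside 0.01 over all tested probes. Ugt8a differed by -1.28 ± 0.24 and Fa2h by -1.02 ± 0.2 (limma adjusted p = 0.0175 and 0.0194), a 2.42-fold and a 2.03-fold lower level in AN. Elovl6 (-0.95 ± 0.17, limma adjusted p = 0.0147) and Scd1 (-0.77 ± 0.17, limma adjusted p = 0.0389) passed the adjusted p and not the fold threshold, which makes 4 of 10 at an adjusted p below 0.05, beside 0.739% of all tested probes. The Ugt8a call was lost without AN replicate 2 (-0.93, limma adjusted p = 0.102), EN replicate 1 (-1.12, 0.116) or EN replicate 3 (-1.18, 0.0882) of P0, and the Fa2h call without AN replicate 2 (-0.74, 0.107) or 3 (-1.05, 0.0626) or EN replicate 1 (-0.87, 0.132) or 3 (-1.09, 0.0581). With the same-numbered AN and EN arrays as a block, the number of members at an adjusted p below 0.05 was 6, beside 3.85% of all tested probes, with Scd2 and Elovl1 added, and the same 2 were called. The summed level of Schwann cell markers at P0 was also lower in AN, 18.95 to 19.3 against 19.58 to 19.72, as were 5 of its 12 genes by the same call, and the part of this in the members' differences was not tested. Within slides, all 10 genes were lower in AN at P0 on both slides that held P0, by -0.22 to -1.23 on slide 1 and -0.23 to -1.3 on slide 3.

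From 1W on the median differences were smaller. At 1W, 0 of 10 members were called (2.79% of all tested probes), at 3W 0 (3.11%) and at 5W 0 (3.31%), with median differences of -0.32, -0.28 and -0.03. Of the 30 same-numbered differences, which again are not independent, 29 were below 0 at 1W, 27 at 3W and 20 at 5W. At 5W the slides disagreed, with 8 and 9 of the 10 genes lower in AN on slides 2 and 3 and 7 of 10 higher on slide 4, where the differences ran from -0.55 to 0.47. Cers2 was the only member at an adjusted p below 0.05 at all 3 of these stages, with differences of -0.55 ± 0.15, -0.78 ± 0.15 and -0.51 ± 0.15 (limma adjusted p = 0.0457, 0.00425 and 0.0447), or 1.46-fold, 1.72-fold and 1.43-fold lower in AN, and its AN and EN arrays did not overlap at any of them. At P0 the Cers2 difference was -0.27 ± 0.15 (limma adjusted p = 0.841). Its second probe gave -0.7, -1.04 and -0.81 at 1W, 3W and 5W (limma adjusted p = 0.0329, 0.00204 and 0.00979), past the fold threshold at 3W. Scd1 differed by -0.62 ± 0.17 at 3W (limma adjusted p = 0.0362). At 3W the replicate 3 pair gave the most negative difference for every member. For Scd1 it was -0.94, against -0.55 and -0.37 in the other pairs, and for Cers2 -1.1, against -0.67 and -0.56. AN at 3W, replicate 3, was the array with the lowest weight (0.216). In the fit with same-numbered arrays as a block, the members at an adjusted p below 0.05 numbered 6, 5 and 1 at the successive stages, beside 10.8%, 21.1% and 23.5% of all tested probes. Without the block they numbered 1, 2 and 1, beside 4%, 5.89% and 6.76%. None was past the fold threshold, and the single member at 5W is a share below that of all tested probes in the blocked fit.

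**Figure D4:**
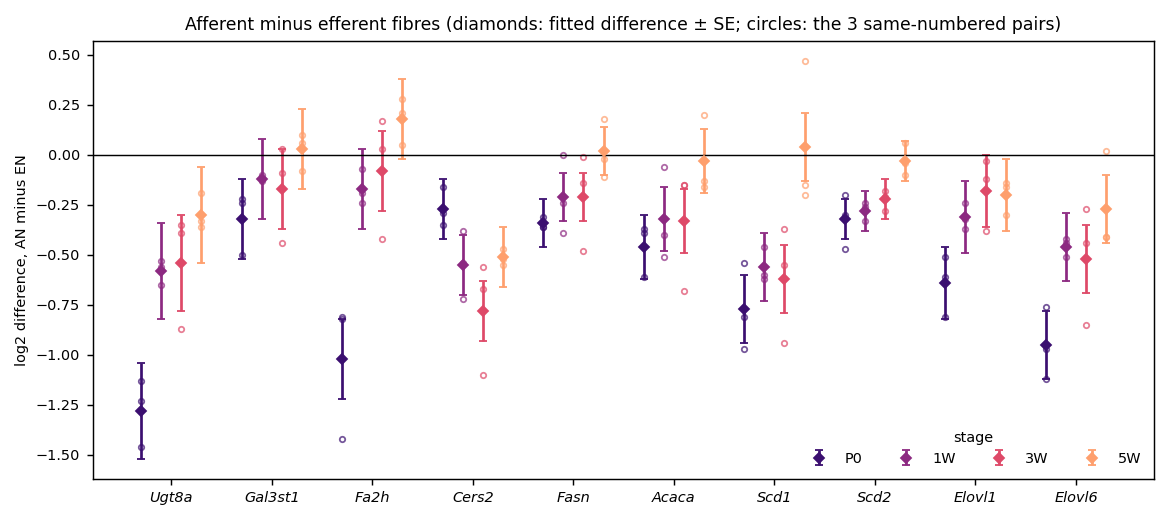
Log2 difference AN minus EN (vertical axis) of each gene at P0, 1W, 3W and 5W, with diamonds and bars for the fitted difference and its SE and circles for the 3 same-numbered pairs of arrays. All P0 values lie below 0, from -1.28 for Ugt8a to -0.27 for Cers2, and for Ugt8a, Cers2 and Elovl1 all 3 pairs lie below 0 at all 4 stages.

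Whether the change since P0 differed between the roots was tested by the interaction, the AN minus EN difference at a later stage less that at P0. Fa2h was the 1 member called, at 5W, with an interaction of 1.2 ± 0.28 (limma adjusted p = 0.0433), against 0.931% of all tested probes, and its change since P0 was larger in AN. The call is close to the threshold: it remained in 3 of the 24 fits that left out 1 array, with adjusted p-values from 0.0082 to 0.598 over these and the 3 fits that left out 1 replicate number, and in the fit with same-numbered arrays as a block its adjusted p was 0.00928. At 1W and 3W no member was called (1 and 3 members at an unadjusted p below 0.05, beside 7.06% and 9.18% of all tested probes), against 0.0632% and 0.525% of all tested probes, and Fa2h had interactions of 0.85 ± 0.28 and 0.94 ± 0.28 (limma adjusted p = 0.348 and 0.182). Ugt8a had an interaction of 0.98 ± 0.35 at 5W (limma adjusted p = 0.231), and 0.0073 with the same-numbered arrays as a block, where 4 members were at an adjusted p below 0.05, beside 6.77% of all tested probes, in place of 1, beside 1.14%. Cers2 was the single gene with interactions below 0 at all 3 stages, -0.28, -0.51 and -0.25, none past the threshold (limma adjusted p = 0.998, 0.431 and 0.785). Myelin protein genes had a median interaction of 0.94 at 5W, with 2 of 12 called (Cnp 1.27 and Ncmap 1.57), and Schwann cell markers a median of 0.74, with 1 of 12 called. Oligodendrocyte markers, some not above background on every array, had a median interaction of 1.67 at 5W, with 0 of 10 called. At 5W itself 4 of these 10 were called higher in AN than in EN, beside 2.49% of all tested probes. The part of these lists in the Fa2h result was not tested.

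Other genes of lipid metabolism were read by list. Over all tested probes, 30.5% were called at 3W against P0 in EN (16.1% higher and 14.4% lower). In AN 27.8% were called (15% higher and 12.8% lower). Beside these shares, the counts of calls in this and the next paragraph are not read as results about the lists. Of 21 tested genes that supply, lengthen or desaturate fatty acids, 6 were called higher and 1 lower at 3W in EN, with a median of 0.49, and 6 higher and 1 lower in AN, with a median of 0.14. Slc25a1, the mitochondrial citrate carrier, was higher at 3W by 2.29 in EN and 2.51 in AN, and Acss2, which makes acetyl-CoA from acetate, by 2.03 and 2.49. Elovl2, an elongase of polyunsaturated chains, was lower: in EN, where it was not well above background at 3W, at least 14.9-fold, and in AN by a log2 difference of -3.36. Of 18 tested genes of ceramide and other sphingolipid synthesis, 2 were called higher and 0 lower in EN, with a median of 0.11. Degs2, a dihydroceramide desaturase and hydroxylase, was higher at 3W, at least 31.5-fold in EN, where it was not well above background at P0, and was called higher in AN, where 1 of 3 P0 arrays measured it, and Cers4, another ceramide synthase, was higher by 2.56 and 2.39. Degs2 rose between 1W and 3W in both roots (limma adjusted p = 3e-06 and 1.08e-05). A bound sets the mean of the brighter group against the lowest signal that was well above background on each array of the dimmer group, or the probe's own signal where higher.

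Of 13 genes that activate or bind fatty acids, 3 were called higher and 2 lower at 3W in EN, with a median of -0.08. Pmp2, the fatty acid binding protein of peripheral myelin, was higher by 1.84 in EN and 1.88 in AN, and Fabp7, the fatty acid binding protein of immature glia, was lower by -3.76 and -1.92. Acsl1, an acyl-CoA synthetase, was higher by 1.14 in EN (called) and 0.74 in AN. Of 6 genes that supply UDP-galactose or the sulfate donor, Papss2 was the 1 called at 3W in EN (1.54, and 0.75 in AN), and Slc35a2, the UDP-galactose carrier of the Golgi, gave 0.96 and 0.92. Slc35a2 was named after its values were seen, as was Srebf1. None of 9 genes of galactolipid breakdown was called at 3W in either root, and 3 were called higher at 5W in EN, beside 15.4% of all tested probes. Of 16 regulators of lipid synthesis, 5 were called higher and 1 lower at 3W in EN. Nr1h3, an oxysterol receptor, was higher by 2.57 in EN and 2.31 in AN, Thrsp by 1.86 and 2.37, and Ppara by 1.5 and 1.3. Srebf1, which drives fatty acid synthesis genes, gave -0.16 and -0.36 through its brightest probe and was not called.

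Set beside these, the 10 members at 3W had a median of 1.55 in EN, with 8 of 10 called higher. Myelin protein genes had a median of 1.15, with 8 of 12 called higher, and sterol synthesis genes a median of 1.67, with 15 of 20 called higher. At 1W the sterol genes had 18 of 20 called higher in EN and 20 of 20 in AN, where the members had 6 of 10 in each root. Of all tested probes, 6.25% in EN and 4.96% in AN were called higher at 1W. In AN the medians were 1.79, 2.07 and 1.84. At P0 the AN minus EN medians were -0.55 for the members, -0.7 for the myelin protein genes and -0.84 for the sterol genes. The lists were chosen with results of these data known, and no test of one list against another was made.

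**Figure D5:**
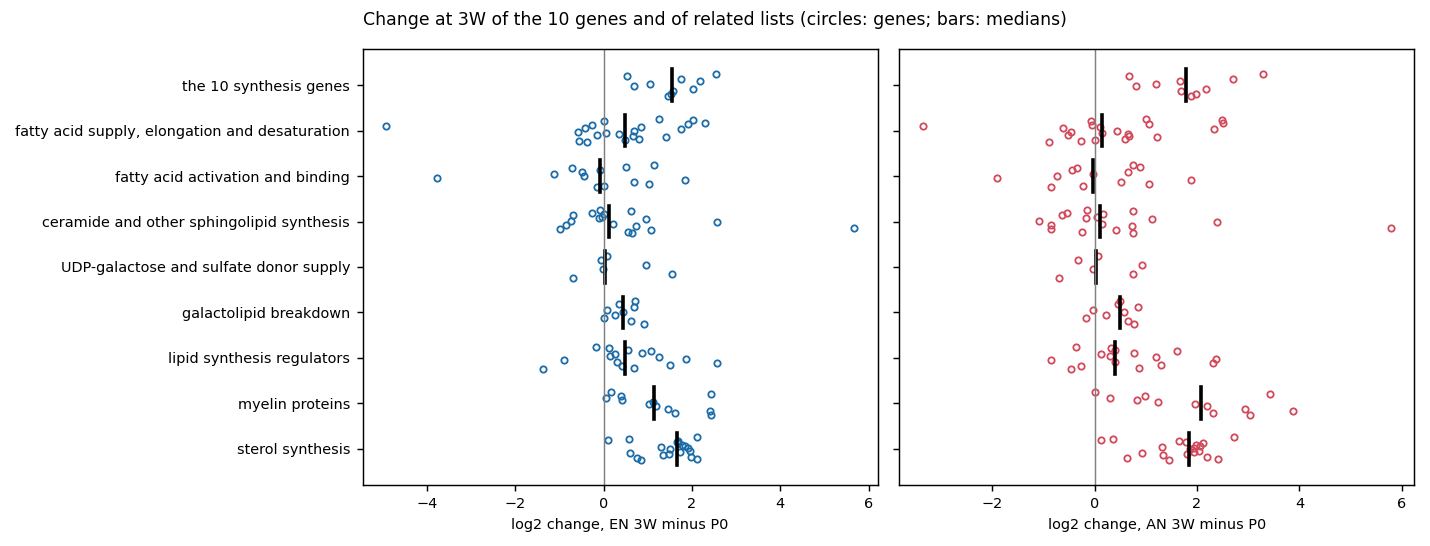
Log2 change from P0 to 3W (horizontal axis) in EN (left) and AN (right), with a circle for each gene and a bar for the median of each list (rows). The bars of the 10 genes (1.55 and 1.79), of myelin proteins (1.15 and 2.07) and of sterol synthesis (1.67 and 1.84) lie to the right of those of the other lipid lists.

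Over the 24 arrays the 45 pairs of members had Pearson r from 0.327 (Gal3st1 and Cers2) to 0.972 (Fasn and Scd2), with a median of 0.919. These values describe 24 arrays that share stages and slides. The probes with a gene name that most resembled each member over the 24 arrays were Pla2g16 and Epb4.1l2 for Ugt8a (r = 0.992 and 0.985), Abca2 and Drp2 for Fa2h (0.992 and 0.991), Gmfb and Cltb for Cers2 (0.988 and 0.988) and Deb1 and Defb20 for Gal3st1 (0.953 and 0.93). For Elovl1 they were Mapk8ip1 and Cryab (0.99 and 0.989), for Elovl6 Ppm1l and Gldn (0.982 and 0.981), for Scd1 St6gal1 and Myrfl (0.977 and 0.977), and for Acaca Fnbp1 and Hspa12a (0.963 and 0.961). Fasn and Scd2 shared the nearest probe, 1 of 2 for Prx (0.982 and 0.984), the other neighbours being St6gal1 (0.972) and Hecw2 (0.983). Prx encodes periaxin of the Schwann cell membrane and Drp2 its partner. The Prx probe concerned rose by 1.8 in EN and 2.2 in AN at 3W, while the brighter Prx probe gave 0.05 and 0.29, so the 2 Prx probes disagree. The probes of Drp2, Cltb, Fnbp1, Hspa12a and, for Fasn, St6gal1 were also not the brightest of their genes. For Fnbp1 the matched probe gave 1.37 and 1.4 and the brightest 0.4 and 0.69. For Drp2 they gave 4.61 and 5.84 against 4.47 and 5.59.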

How the data were processed

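Total RNA (Cyanine-3 label) was measured on 24 one-colour Agilent mouse arrays, read out with Agilent Feature Extraction 10.7.1.1 per the labels. The authors deposited a table of log2 values, quantile normalized in GeneSpring per the methods, whose column median was 6.31 on every array, and per-array scanner intensity, background-subtracted by the scanner software. The log2 table was used as given for 56605 gene probes, and intensities served for background marks and alternatives. For arrays, depth means signal above background, and their number limits the precision.

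The 36409 probes that every array of some group (3 of 3) measured well above background were fitted with limma 3.58.1 in R 4.3.3 over the 8 group means (16 residual degrees of freedom, 18.35 in total with eBayes), with code that was tested on simulated data. The methods give p below 0.05 and fold above 2 without naming an adjustment; adjusted p was used here. Each gene was read through its brightest probe. Of the other genes, up to 3 per list were named by their change at 3W in EN, and 2 neighbours per member by Pearson r. The members and lists were chosen with earlier results of these data known. Same-numbered AN and EN arrays of a stage deviated together (12 of 12 r above 0.1, from 0.107 to 0.646). A fit with these pairs as a block was therefore run as an alternative. The main fit, and every p-value given without mention of a block, did not use the pairing. Alternatives were other scalings, background corrections, filters, blocks, weights, thresholds, probe means and left-out arrays.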

Additional observations from a re-analysis of the deposited data

Results flagged for a closer look

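Fa2h, fatty acid 2-hydroxylase, changed since P0 by a different amount in the 2 roots. The AN minus EN difference at 5W less that at P0 was 1.2 on the log2 scale (SE 0.28, limma adjusted p = 0.0433). The change since P0 was 1.81 in EN and 3.01 in AN. The AN minus EN difference was -1.02 at P0 and 0.18 at 5W, and the 3 same-numbered differences ran from -1.42 to -0.81 at P0 and from 0.05 to 0.28 at 5W. The call was absent in 21 of the 24 fits that left out 1 array. The median of the same difference was 0.94 over 12 myelin protein genes, 0.74 over 12 Schwann cell markers and 1.67 over 10 oligodendrocyte markers. The part of these lists in the Fa2h difference was not tested.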

How the results depend on the processing

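For the counts of members called against P0 in EN and AN at 3W and 5W, the alternatives gave 7 to 10, within 1.5 times the value given. Without the fold minimum the counts were 10 in both roots at 1W against P0 (6 and 6 with it), 6 and 5 for 3W against 1W in EN and AN, 1 for 5W against 3W in AN, and 4, 1, 2 and 1 for AN against EN at P0, 1W, 3W and 5W. With 75th percentile scaling 1 member was called for 3W against 1W in EN and 0 for the interaction at 5W, which was also 0 with no filter on dim probes. Fitting only the groups compared gave 0 for AN against EN at P0 and 0 for the interaction at 5W. The mean of all probes of a gene gave 1 for AN against EN at P0 and turned the Acaca minus Fasn difference to 0.23, 0.14 and 0.14 at 1W, 3W and 5W (-0.1, -0.38 and -0.26 by the brightest probe). Array weights gave 1 for the interaction at 3W. Leaving out 1 array or 1 replicate number gave 0 to 3 for AN against EN at P0, 0 to 1 for 3W against 1W in EN, and 0 to 1 for the interactions at 3W and at 5W. The cause of these moves was not tested, apart from the fewer arrays or lower threshold that some alternatives hold by construction. With stage and replicate number as a replicate block, which pairs AN and EN, 2 members were called at P0 and 1 in the interaction at 5W, as without it, and none of the other AN against EN or interaction calls, the only ones it was fitted for, changed. The replicate number alone as a block changed no count of calls, with 8 at 3W in EN. Enzyme pairs could not reach the threshold with a replicate left out, or with same-numbered arrays moved together (smallest exact p of 0.1, an alternative chosen after seeing the data), and with a replicate left out their directions were compared without a test. The member probes used were above background on all 24 arrays.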
